A study of Mus musculus with 24 samples.

Results

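The kinesin superfamily was described across 24 expression arrays of MM.1S plasmacytomas, with KIF11 and KIF15 left out. Members were all genes of the array's probe table whose symbol begins with KIF or KIFC followed by a number. This gave 41 symbols of 14884 genes, each read from 1 probe set, the one with the highest mean over the 24 arrays. Of these, 40 are kinesin genes and 1, KIF9-AS1, is an antisense transcript of KIF9. From their known functions 12 kinesins were classed as mitotic, 15 as transport and 13 as other.

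Kinesins are motor proteins that use ATP to walk along microtubules or to take their ends apart. Transport kinesins carry vesicles, organelles and ciliary cargo in cells at rest as well as in dividing ones, while mitotic kinesins build the spindle, align and pull chromosomes and complete cytokinesis. Most mitotic kinesin genes are transcribed chiefly in G2 and M phase of the cell cycle. Filanesib inhibits KIF11, the mitotic kinesin that pushes spindle poles apart, and holds dividing cells in mitosis. Whether the other kinesin genes shift when that motor is inhibited, alone or beside pomalidomide and dexamethasone, is the question the design allows to be asked here.

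MM.1S, a human multiple myeloma line, was grown with Matrigel under the skin of immunodeficient CB17-SCID mice, and 8 groups of 3 arrays were compared. The groups were control, filanesib, dexamethasone, pomalidomide, filanesib plus dexamethasone, filanesib plus pomalidomide, pomalidomide plus dexamethasone, and all 3 drugs, called the triple combination below. Treated mice received filanesib at 10 mg/kg, dexamethasone at 0.5 mg/kg and pomalidomide at 8 mg/kg into the peritoneum over 2 days, and controls received PBS as vehicle although their labels read as untreated. The organism in the labels is the mouse, but the probes are for human transcripts. The levels are therefore those of the human tumour cells plus cross-hybridising mouse RNA, and mouse kinesins were not measured as such. It is not stated whether each array is its own animal, and a p-value here reflects only how far these arrays scatter, which may be technical.

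Tumour identity was checked against human probe sets of marker genes. Stromal cells of the host are mouse cells, which these probe sets register only by cross-hybridisation, so a change in stroma could go unseen. All 7 measured plasma cell markers lay above the median gene and 6 of them among the brightest 10% of genes, whereas 1 of 6 macrophage markers (CD68), 0 of 5 endothelial and 0 of 2 fibroblast markers did. A mean over the plasma cell markers lay between 9.21 and 9.46 on the log2 scale in arrays with filanesib and between 9.29 and 9.53 without it. The corresponding ranges were 4.18 to 4.54 and 4.21 to 4.55 for macrophage markers, 3.07 to 3.51 and 3.19 to 3.36 for endothelial markers, and 2.25 to 2.37 and 2.23 to 2.51 for fibroblast markers, so that every list overlapped between arrays with and without filanesib.

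Some arrays stood apart for the kinesins. Over the 10 mitotic kinesins called below, replicate 2 of filanesib alone was the lowest of its group in 10, replicate 3 of pomalidomide alone the lowest in 10, replicate 3 of filanesib alone the highest in 9, and replicate 3 of control the highest in 8. The arrays of pomalidomide alone also had the widest residual spread over all genes (SD 0.232, 0.194 and 0.289). For several class medians that turned or moved by a large part when 1 of these arrays was left out, the value without it is given too. In bulk tumour RNA, fewer cells of a kind and less RNA per cell cannot be told apart.

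All values below are log2 expression levels or differences between them, so that a difference of 1 is a doubling. The average effect of a drug pools 4 differences, 1 for each combination of the other drugs, and so compares the 12 arrays that had the drug with the 12 that had not. A gene was called when its limma p-value, adjusted over all 14884 genes by the Benjamini-Hochberg method, was under 0.05.

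Of the 12 mitotic kinesins, 10 rose with filanesib in its average effect and none fell, where 1.25% of all genes rose and 0.148% fell. Their differences lay between 0.32 and 0.72. None of the 15 transport kinesins passed the threshold, 2 being higher and 1 lower at an unadjusted p under 0.05 (11.7% of all genes in either direction), and 1 of the 13 other kinesins rose. The median difference was 0.45 over the mitotic class, 0.08 over the transport class and -0.01 over the other kinesins, beside -0.00 over all genes. Mitotic kinesins were positive in 11 of 12, transport kinesins in 11 of 15, the others in 6 of 13, and all genes in 49.2%.

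**Figure D1:**
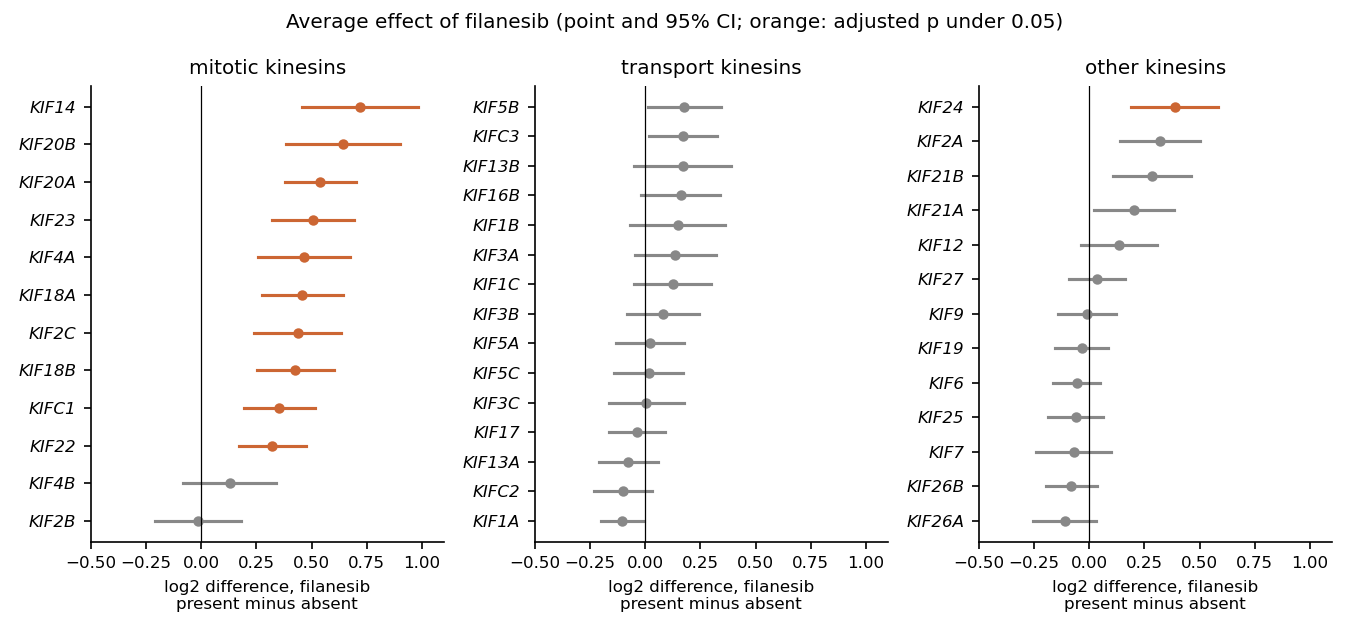
Average effect of filanesib for each kinesin in 3 panels by class. The horizontal axis is the log2 difference between arrays with and without filanesib (12 against 12), points are estimates, bars 95% confidence intervals, and orange marks an adjusted p under 0.05. Orange points fill the mitotic panel except KIF4B and KIF2B, 1 stands in the panel of other kinesins (KIF24), and none among transport kinesins.

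The members that act in the central spindle and in cytokinesis are described first. KIF14 (probe set 16697695), a motor of the midbody that works with citron kinase and PRC1, read 6.78, 6.74 and 6.97 in control, 6.20, 6.82 and 6.22 with dexamethasone, 7.27, 6.75 and 5.65 with pomalidomide and 6.56, 6.50 and 6.65 with both. With filanesib, KIF14 read 7.08, 6.72 and 7.28 alone, 7.52, 7.05 and 7.46 beside dexamethasone, 7.28, 7.11 and 7.31 beside pomalidomide and 7.51, 7.62 and 7.83 in the triple combination. Of the 12 arrays with filanesib, 8 lay above the highest without it, which was replicate 1 of pomalidomide, and the triple combination held the highest 2 values of all. KIF14 rose by 0.72 ± 0.13 (SE), or 1.65-fold (limma adjusted p = 0.00258), and by 0.61 without replicate 3 of pomalidomide (adjusted p = 0.000626).

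KIF20A (probe set 16989636), which carries the chromosomal passenger complex from the chromosomes to the central spindle, had the smallest p-value among the members. It read 6.58, 6.78 and 7.05 in control, 6.48, 6.74 and 6.36 with dexamethasone, 6.53, 6.50 and 6.49 with pomalidomide, and 6.57, 6.98 and 6.62 with both. Its values with filanesib were 7.27, 6.86 and 7.33 alone, 7.37, 6.96 and 7.09 beside dexamethasone, 7.19, 7.16 and 7.16 beside pomalidomide, and 7.01, 7.24 and 7.51 in the triple combination. Control replicate 3 was the highest array without filanesib, and 9 of the 12 arrays with filanesib exceeded it. KIF20A rose by 0.54 ± 0.08, or 1.45-fold (adjusted p = 0.000465).

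KIF20B (probe set 16707221), a related motor of late cytokinesis, spanned 6.77 to 7.47 with filanesib (median 7.20) and 5.43 to 6.996 without it (median 6.50). The lowest array was replicate 3 of pomalidomide and the highest without filanesib was replicate 1 of the same group, so that group alone covered the whole range of tumours without filanesib. KIF20B rose by 0.64 ± 0.12 (adjusted p = 0.00693), and by 0.53 without replicate 3 of pomalidomide (adjusted p = 0.00126).

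KIF23 (probe set 16802519), the motor subunit of the centralspindlin complex that bundles midzone microtubules, ran from 7.61 to 8.31 with filanesib (median 8.01) and from 7.01 to 7.91 without (median 7.51), and 10 of 12 arrays with filanesib lay above every array without it. KIF23 rose by 0.51 ± 0.09 (adjusted p = 0.00304). KIF4A (probe set 17104484), a chromokinesin that binds PRC1 and limits the length of the central spindle, also had 10 of 12 arrays above every array without filanesib. Its arrays with filanesib spanned 6.49 to 7.56 (median 7.21), the lowest being replicate 2 of filanesib alone, and its arrays without spanned 6.18 to 7.09 (median 6.71). KIF4A rose by 0.47 ± 0.10 (adjusted p = 0.0168). These 5 motors of the midzone and midbody thus rose by 0.47 to 0.72.

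**Figure D2:**
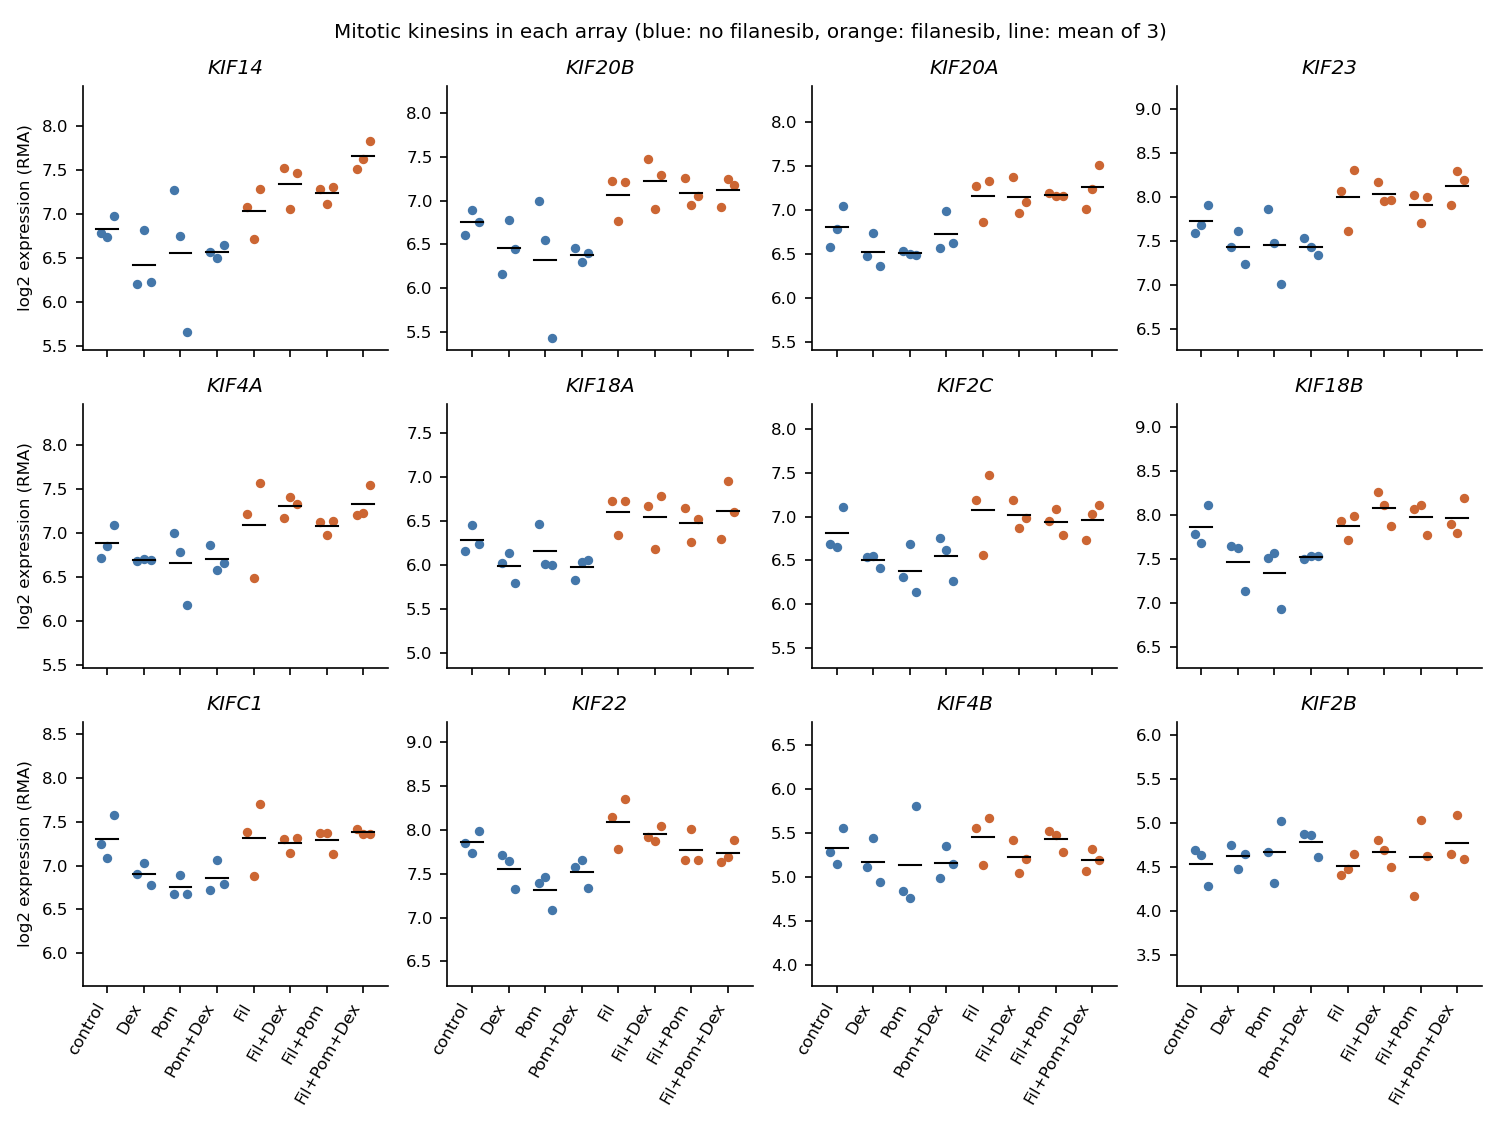
Log2 expression of the 12 mitotic kinesins in each of the 24 arrays, 1 panel per gene with its own vertical range of equal height. The vertical axis is the RMA log2 level, the horizontal axis the 8 groups, each point is 1 array, the line the mean of 3, blue is without and orange with filanesib. Replicate 3 of pomalidomide is the low blue point of KIF14 (5.65) and KIF20B (5.43), and replicate 2 of filanesib alone sits among the blue points in several panels.

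The 5 other called mitotic kinesins act on chromosomes and spindle length and gave estimates of 0.32 to 0.46. Whether they differ from the first 5 was not tested. KIF18A, which caps the plus ends of kinetochore microtubules and damps chromosome movement, spanned 6.19 to 6.95 with filanesib (median 6.63) and 5.79 to 6.47 without (median 6.05), and rose by 0.46 ± 0.09 (adjusted p = 0.0066). Its relative KIF18B, which shortens astral microtubules, spanned 7.71 to 8.26 and 6.93 to 8.12, and rose by 0.43 ± 0.08 (adjusted p = 0.00796). For KIF18B control replicate 3 read 8.12 and 2 arrays with filanesib exceeded it, whereas 10 arrays without filanesib lay below the lowest with it.

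KIF2C, a centromeric motor that takes microtubule ends apart and frees wrong attachments, spanned 6.56 to 7.48 with filanesib (median 7.01) and 6.14 to 7.11 without (median 6.59). KIF2C rose by 0.44 ± 0.09 (adjusted p = 0.0176). Testing every probe set on the array instead of 1 per gene kept the estimate but moved the adjusted p of KIF2C to 0.0785, that of KIF4A to 0.0776 and that of KIFC1 to 0.0776. KIFC1, a minus-end-directed motor that crosslinks spindle microtubules and clusters extra centrosomes, spanned 6.88 to 7.69 with filanesib (median 7.36) and 6.68 to 7.57 without (median 6.90), and 1 array with filanesib lay above every array without it. KIFC1 rose by 0.35 ± 0.08 (adjusted p = 0.0195).

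KIFC1 had 4 probe sets. One was an identical copy of the probe set used, another gave 0.34 ± 0.08 (adjusted p = 0.022), and a dim one with a mean level of 3.86 gave -0.06 ± 0.10 (adjusted p = 0.859). With the mean of all its probe sets the adjusted p of KIFC1 became 0.0583.

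KIF22, a chromokinesin that pushes chromosome arms away from the poles, read 7.85, 7.73 and 7.98 in control, 7.71, 7.64 and 7.33 with dexamethasone, 7.40, 7.46 and 7.08 with pomalidomide and 7.57, 7.66 and 7.34 with both. Beside filanesib KIF22 read 8.14, 7.78 and 8.34 alone, 7.92, 7.88 and 8.04 with dexamethasone, 7.65, 8.00 and 7.65 with pomalidomide and 7.63, 7.69 and 7.88 in the triple combination. Among the arrays with filanesib the 4 lowest also had pomalidomide, and so had the lowest array without it, while 4 arrays with filanesib lay above every array without it. KIF22 rose with filanesib by 0.32 ± 0.07 (adjusted p = 0.0223). The call was lost with a further quantile normalisation (0.28, adjusted p = 0.0522), when every probe set was tested, and without replicates 1 and 3 of pomalidomide together. It was also lost without any one of 5 arrays, where the adjusted p reached at most 0.0557. These were replicate 2 of control, replicates 1 and 3 of filanesib, replicate 3 of filanesib plus dexamethasone and replicate 3 of pomalidomide plus dexamethasone.

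The remaining mitotic members, KIF4B and KIF2B, are copies without introns of other kinesin genes. KIF4B gave 0.13 ± 0.10 (adjusted p = 0.675), and because its sequence is nearly that of KIF4A, its probes may register KIF4A transcripts. KIF2B, a motor best known from testis, gave -0.01 ± 0.09 (adjusted p = 0.974) and was the 1 mitotic kinesin below the median gene in mean level.

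Among the other kinesins, KIF24 rose. KIF24 (probe set 17093397) remodels microtubules at the mother centriole and holds back cilium growth. It read 5.65, 5.76 and 6.14 in control, 5.38, 5.81 and 5.52 with dexamethasone, 5.56, 5.60 and 5.18 with pomalidomide and 5.33, 5.38 and 4.79 with both. In arrays with filanesib KIF24 read 6.07, 5.70 and 6.16 alone, 6.19, 5.74 and 5.90 beside dexamethasone, 6.03, 5.64 and 5.70 beside pomalidomide and 5.66, 5.72 and 6.25 in the triple combination. Control replicate 3 exceeded 9 of the 12 arrays with filanesib, while 8 arrays without filanesib lay below the lowest with it. KIF24 rose by 0.39 ± 0.10, or 1.31-fold (adjusted p = 0.0407).

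That call was close to the threshold: it was lost in 14 of 24 omissions of 1 array, with an adjusted p of up to 0.0975 and a difference between 0.34 and 0.42. KIF2A, a depolymerase of spindle poles and of growing neurites, gave 0.32 ± 0.09 (adjusted p = 0.0756) and spanned 7.34 to 7.82 with filanesib against 6.46 to 7.56 without. KIF21B, a kinesin that paces microtubule growth, gave 0.28 ± 0.09 (adjusted p = 0.117), and its relative KIF21A 0.20 ± 0.09 (adjusted p = 0.356). With KIF24 these 4 genes held the largest differences among the other kinesins. The ciliary and Hedgehog members KIF6, KIF7, KIF9, KIF19 and KIF27, with KIF12, KIF25, KIF26A and KIF26B, lay between -0.11 and 0.14, none past the threshold, and KIF9-AS1 gave 0.00 ± 0.06 (adjusted p = 0.989). KIF9 and its antisense transcript overlap in the genome, so their signals may not be fully separate.

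For transport kinesins the average effect of filanesib lay between -0.10 and 0.18. KIF5B, the heavy chain of conventional kinesin found in most cells and the brightest member relative to all genes (96.3% of genes were at or below its mean), gave 0.18 ± 0.08 (adjusted p = 0.38). Its arrays spanned 8.51 to 8.89 with filanesib (median 8.71) and 7.85 to 8.81 without (median 8.60), and the lowest was again replicate 3 of pomalidomide. KIFC3, a minus-end-directed motor of epithelial junctions and the Golgi, gave 0.17 ± 0.07 (adjusted p = 0.355). KIF1A, a neuronal carrier of synaptic vesicle precursors below the median gene in level, gave -0.10 ± 0.05 (adjusted p = 0.4). The kinesin-2 subunits of cilia, KIF3A and KIF3B, gave 0.14 ± 0.09 and 0.08 ± 0.08 (adjusted p = 0.587 and 0.747), and the carriers of mitochondria and endosomes, KIF1B and KIF16B, gave 0.15 ± 0.10 and 0.16 ± 0.09 (adjusted p = 0.628 and 0.491). The 95% interval of KIF5B ran from 0.01 to 0.34 and that of KIF3C, the smallest in size, from -0.17 to 0.17.

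The members also differed in how brightly their probe sets read. Above the median gene in mean level lay 11 of 12 mitotic, 9 of 15 transport and 8 of 13 other kinesins. The kinesins below that line were KIF1A, KIF5A, KIF5C, KIF17, KIF13A, KIFC3, KIF2B, KIF6, KIF9, KIF25, KIF26B and KIF27. Of these KIF1A, KIF5A, KIF5C and KIF17 are mainly known from neurons, but KIFC2, another neuronal motor, lay above the line at 5.75.

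The same pattern was described array by array with the median deviation of a class, that is, the median over its members of each gene's level minus that gene's mean over 24 arrays. For the mitotic class 11 of 12 arrays with filanesib lay between 0.09 and 0.42, and the exception, replicate 2 of filanesib alone, at -0.14. In the 12 arrays without filanesib the median deviation lay between -0.64 (replicate 3 of pomalidomide) and 0.14 (replicate 3 of control), and control replicate 3 was the only positive one. The transport class ranged from -0.05 to 0.12 with filanesib and from -0.11 to 0.06 without. No member was among the 5 genes (0.0336% of those tested) for which all 12 arrays with filanesib lay above all 12 without.

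**Figure D3:**
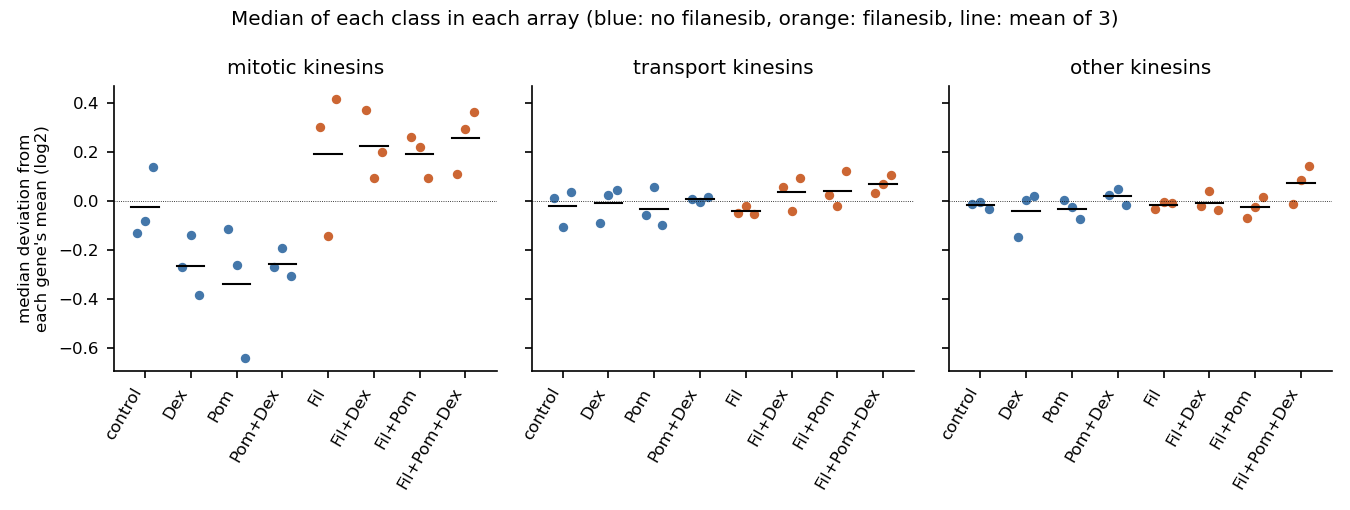
Median deviation of each kinesin class in each array. The vertical axis is the median, over the members of a class, of the log2 level minus the gene's mean over 24 arrays. The horizontal axis gives the 8 groups, points are arrays, lines means of 3, blue without and orange with filanesib. Mitotic points with filanesib reach from -0.14 to 0.42 and those without from -0.64 to 0.14, whereas the points of the other classes stay closer to 0.

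Each background of the other drugs was then examined on its own, with 3 arrays against 3. Filanesib against control gave a median of 0.22 over the mitotic class and -0.00 over the transport class. No kinesin was called, and 0% of all genes were. At an unadjusted p under 0.05, 1 mitotic kinesin (KIF20A, 0.35) was higher, beside 3.94% of all genes in either direction. In none of the 12 mitotic kinesins did the arrays separate, where 5.62% of all genes separated upwards. Replicate 2 of filanesib alone lay below the highest control array in each of the 10 called mitotic genes, and without it the mitotic median was 0.42 and the transport median -0.01. Replicate 3 of filanesib alone was the highest of its group in 9 of those genes, and without it the mitotic median was 0.06, with 8 of 12 members positive in place of 11, and the transport median -0.05.

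Filanesib beside dexamethasone, against dexamethasone alone, gave a mitotic median of 0.58, the largest of the 4 backgrounds, with 12 of 12 members positive, and a transport median of 0.04. None was called (0.0202% of all genes were), but 10 mitotic kinesins had an unadjusted p under 0.05 (5.73% of all genes had), and in 10 of 12 the 3 arrays with filanesib lay above all 3 without, against 7.06% of all genes. The largest difference was that of KIF14, 0.93 (adjusted p = 0.354). In the transport class 0 of 15 separated upwards.

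Filanesib beside pomalidomide, against pomalidomide alone, gave a mitotic median of 0.50 and a transport median of 0.11. At an unadjusted p under 0.05, 9 mitotic, 3 transport and 2 other kinesins were higher. The share of all genes at that level, in either direction, was 13.3%. None of the kinesins was called (0.356% of all genes were). KIF20A came closest, at 0.66 (adjusted p = 0.0592), with pomalidomide arrays at 6.53, 6.50 and 6.49 and combined arrays at 7.19, 7.16 and 7.16. Arrays separated upwards in 5 mitotic, 3 transport (KIF13B, KIF16B and KIF1C) and 2 other kinesins (KIF21B and KIF24), beside 8.28% of all genes. These values rest in part on replicate 3 of pomalidomide: without it the mitotic median was 0.33 and the transport median 0.01, while the median of the other kinesins turned from -0.02 to 0.01.

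The triple combination against pomalidomide plus dexamethasone, the addition of filanesib to a pair in clinical use, gave a mitotic median of 0.52, a transport median of 0.12 and a median of -0.01 over all genes. No kinesin was called, where 1 gene in all (0.00672%) was. At an unadjusted p under 0.05, 9 mitotic, 1 transport and 3 other kinesins were higher and 2 transport kinesins lower. The share of all genes at that level, in either direction, was 7.29%. KIF14 differed by 1.08 ± 0.25, or 2.12-fold (adjusted p = 0.132), from arrays of 6.56, 6.50 and 6.65 to arrays of 7.51, 7.62 and 7.83. The arrays of the pair lay close together and well below all 3 of the triple combination. KIF23 differed by 0.70 ± 0.18 (adjusted p = 0.182), KIF18A by 0.64 ± 0.18 (adjusted p = 0.224) and KIF24 by 0.71 ± 0.19 (adjusted p = 0.205). KIF20B differed by 0.73 ± 0.25 (adjusted p = 0.429). Arrays separated upwards in 8 of 12 mitotic, 4 of 15 transport and 2 of 13 other kinesins, and downwards in 2 transport kinesins, KIF1A and KIFC2, beside 7.22% of all genes upwards and 8.53% downwards.

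With array weights, which count arrays with a wide spread for less, KIF14 and KIF23 passed in this comparison (adjusted p = 0.00586 and 0.0269). Without replicate 3 of pomalidomide, an array outside the comparison that feeds the shared estimate of the spread, KIF14 also passed (adjusted p = 0.00939).

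Of the 12 mitotic kinesins, 11 had a positive difference in all 4 backgrounds, as had 10.5% of all genes, 3 of 15 transport kinesins and 4 of 13 others. The exception was KIF2B, positive in 1 background. Whether the mitotic median of 0.22 with no other drug differs from the 0.50 to 0.58 beside another drug was not tested directly. The pairwise interactions each compared, gene by gene, the effect of 1 drug with and without another, averaged over the third. That of pomalidomide by dexamethasone does not compare effects of filanesib. None of the 40 kinesins passed, and none of all genes did (0% in each of 3 interactions). The mitotic median was 0.12 for filanesib by pomalidomide, 0.17 for filanesib by dexamethasone and 0.21 for pomalidomide by dexamethasone. Positive were 11, 10 and 12 of 12 members, beside 49.7%, 46.8% and 56.5% of all genes. For pomalidomide by dexamethasone, 2 mitotic and 1 other kinesin were higher at an unadjusted p under 0.05, beside 520 of 14884 genes. At an unadjusted p under 0.05, met by 6.69% of all genes for filanesib by pomalidomide and 4.34% for filanesib by dexamethasone, the effect of filanesib was larger beside pomalidomide for KIF16B (0.47 ± 0.17, adjusted p = 0.637), KIF21B (0.43 ± 0.17, adjusted p = 0.661) and KIFC1 (0.34 ± 0.16, adjusted p = 0.709), and larger beside dexamethasone for KIF14 (0.57 ± 0.25, adjusted p = 1).

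**Figure D4:**
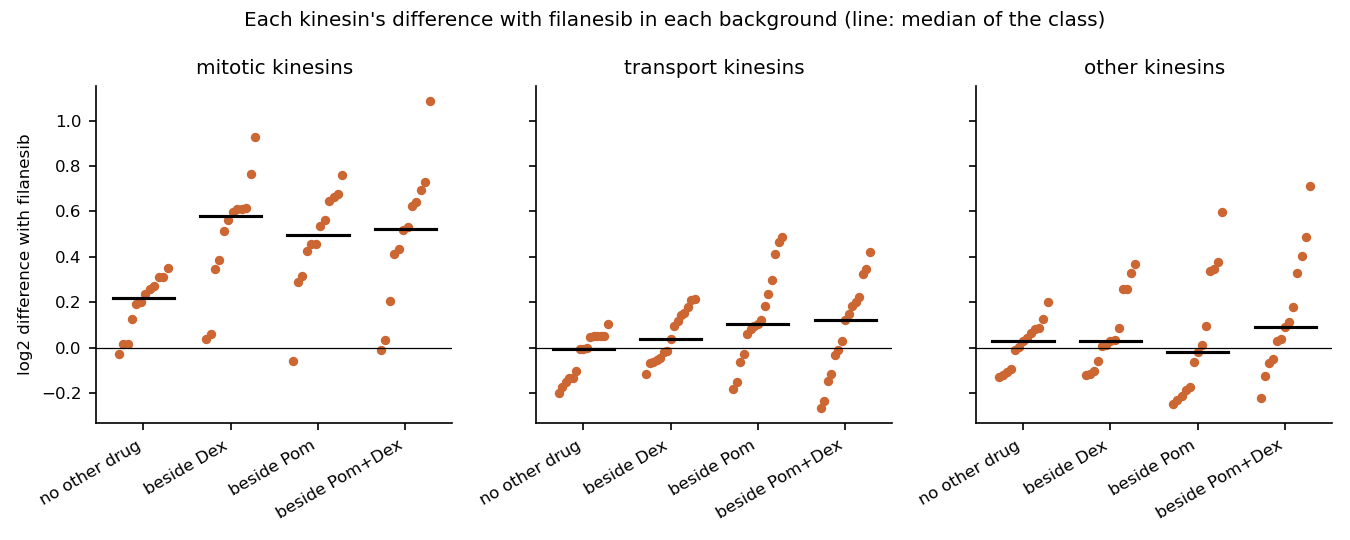
Difference with filanesib for each kinesin in each of the 4 backgrounds, in 3 panels by class. The vertical axis is the log2 difference between 2 groups of 3 arrays, the horizontal axis the other drugs present, each orange point is 1 gene, ordered by size within a background, and the black line the class median. The mitotic median is 0.22 with no other drug and 0.50 to 0.58 beside another drug, and the transport median stays between -0.00 and 0.12.

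The 7 comparisons with control share the same 3 control arrays, so their values are set side by side without being counted as separate evidence. The mitotic median was -0.29 with dexamethasone, -0.29 with pomalidomide and -0.28 with both, and 0.22 with filanesib, 0.24 with filanesib plus dexamethasone, 0.15 with filanesib plus pomalidomide and 0.29 with the triple combination. Transport medians in the same order were -0.01, -0.16, -0.01, -0.00, 0.06, 0.03 and 0.04. Control replicate 3 was the highest control array for 8 of 10 called mitotic kinesins. Without it the mitotic median against control was -0.22 with dexamethasone, -0.19 with pomalidomide and -0.20 with both. With filanesib that median was 0.30 alone, 0.34 beside dexamethasone, 0.26 beside pomalidomide and 0.30 in the triple combination. The transport median turned to 0.02 with dexamethasone and was -0.09 with pomalidomide. The medians with pomalidomide alone rest on its replicate 3: without that array the mitotic median was -0.17, with 3 of 12 members positive in place of 1, and the transport median turned to 0.02, with 8 of 15 positive in place of 6. Those with filanesib alone rest on its replicates 2 and 3, without which, in turn, the mitotic median was 0.42 and 0.06. No mitotic kinesin was called in any of these comparisons, in which the share of all genes called was 0.00672% with dexamethasone, 1.98% with pomalidomide, 0.161% with both, 0% with filanesib, 0% with filanesib plus dexamethasone, 0.141% with filanesib plus pomalidomide and 0.255% with the triple combination. The nearest were KIF22 and KIFC1 with pomalidomide alone, at -0.54 ± 0.15 (adjusted p = 0.0558) and -0.55 ± 0.16 (adjusted p = 0.0687). With pomalidomide the arrays lay below all 3 control arrays in 4 of 12 mitotic kinesins, these 2 among them, and in 9.06% of all genes. The same held for 6 of 12 with dexamethasone (901 of 14884 genes) and 7 of 12 with both (1160 of 14884 genes). In these 3 comparisons the arrays lay above control in 0 of 12. Of 14884 genes, 978 lay above control with pomalidomide, 586 with dexamethasone and 1127 with both, so a count of 0 of 12 is near the share of all genes.

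In the average effect of pomalidomide, 1 kinesin rose, 1 fell, and 2.21% of all genes rose and 2.65% fell, so the share of called kinesins, 2 of 40, was near the 4.86% of all genes. The medians were -0.06 over the mitotic, 0.01 over the transport and -0.01 over the other kinesins. The gene that rose was KIFC3 (probe set 16826803). Its arrays read 4.08, 4.32 and 4.14 in control, 4.45, 4.13 and 3.87 with dexamethasone, 4.27, 4.36 and 4.06 with filanesib and 4.23, 3.997 and 4.58 with both. With pomalidomide KIFC3 read 4.49, 4.63 and 4.49 alone, 4.62, 4.35 and 4.51 with dexamethasone, 4.41, 4.79 and 4.71 with filanesib and 4.88, 4.90 and 4.96 in the triple combination.

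The triple combination was thus the highest group of KIFC3 and its 3 arrays lay close together (SD 0.04). Of the 12 arrays with pomalidomide 7 lay above every array without it. KIFC3 rose by 0.44 ± 0.07, or 1.35-fold (adjusted p = 0.000846), and its separate differences were 0.36 against control, 0.40 added to filanesib, 0.34 added to dexamethasone and 0.64 added to the pair. In these 4 comparisons of pomalidomide no kinesin was called, and of all genes 1.98%, 0.249%, 0.0269% and 0.0269% were. Its difference between the triple combination and control was 0.73 ± 0.15, or 1.66-fold (adjusted p = 0.0259), the only kinesin called in a comparison of 2 groups, where 0.255% of all genes were called. Without 1 array of control or of the triple combination that second call was lost in 5 of 6 omissions (adjusted p up to 0.145). KIFC3 was below the median gene in mean level (4.42), and a filter on dim genes removed it.

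Beside the rise of KIFC3 stood that of CD68, by 0.99 ± 0.09 (adjusted p = 4.31e-07), 1 of 6 measured macrophage markers. The other 5 were not called, the list's median was 0.01, and its mean level lay between 4.30 and 4.55 with pomalidomide and between 4.18 and 4.48 without. Of the plasma cell markers IRF4 fell by 0.54 ± 0.11 (adjusted p = 0.00557) and CD38 rose by 0.18 ± 0.05 (adjusted p = 0.0304). Their part in the change of KIFC3 was not tested.

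The gene that fell with pomalidomide was KIF22, by 0.28 ± 0.07 (adjusted p = 0.0277). Its separate differences were -0.54 against control, -0.32 added to filanesib, -0.04 added to dexamethasone and -0.21 added to the pair. The call was lost in 10 of 24 omissions of 1 array, with an adjusted p of up to 0.059. KIF22 therefore passed in both average effects, upwards with filanesib and downwards with pomalidomide. KIF20B, the mitotic kinesin with the next largest difference, gave -0.15 ± 0.12 (adjusted p = 0.62). Among the rest, KIF24 gave -0.27 ± 0.10 (adjusted p = 0.126), KIF2A -0.14 ± 0.09 (adjusted p = 0.465) and KIF3A -0.11 ± 0.09 (adjusted p = 0.581), and KIF14 and KIF20A gave 0.10 ± 0.13 and 0.01 ± 0.08 (adjusted p = 0.776 and 0.977).

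**Figure D5:**
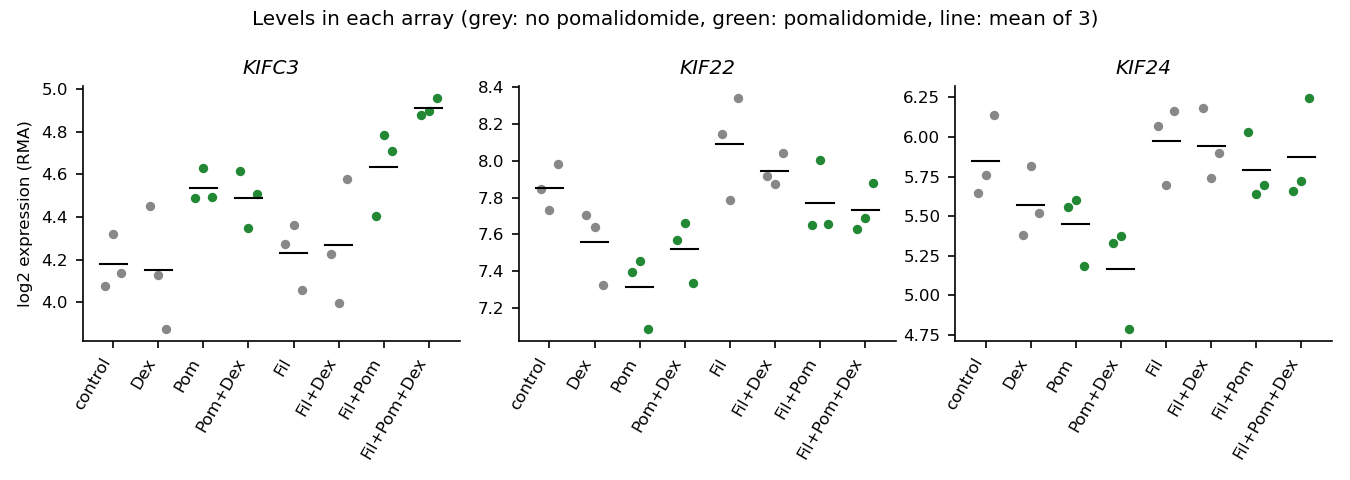
Log2 expression of KIFC3, KIF22 and KIF24 in each array. The vertical axis is the RMA log2 level, the horizontal axis the 8 groups, each point is 1 array, lines are means of 3, grey is without and green with pomalidomide. Green points of KIFC3 reach 4.96 in the triple combination, and those of KIF22 fall to 7.08 with pomalidomide alone.

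No kinesin was called in the average effect of dexamethasone, where 2 genes (0.0134%) were. At an unadjusted p under 0.05 (7.68% of all genes), KIF9 was higher (0.15 ± 0.06, adjusted p = 0.621) and KIF3C lower (-0.18 ± 0.08, adjusted p = 0.635). The medians of the average effect were -0.01 over the mitotic, 0.05 over the transport and 0.05 over the other kinesins. Against control, dexamethasone alone had a mitotic median of -0.29, with 1 of 12 members positive where 45.4% of all genes were. Without replicate 3 of control that median was -0.22.

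Genes that work with these motors were counted from lists. The lists were chosen with earlier results of these data known, so their counts are descriptive and not separate evidence. Of 21 spindle partners of mitotic kinesins 16 were measured and 12 rose with filanesib, with a median of 0.46, and none fell, where 1.25% of all genes rose and 0.148% fell. The smallest p-values belonged to PLK1, the kinase that docks on KIF20A, which rose by 0.63 ± 0.07 (adjusted p = 3.98e-05), and SPAG5, a spindle and kinetochore adaptor, which rose by 0.55 ± 0.08 (adjusted p = 0.000465). PRC1, which bundles the midzone and recruits KIF4A and KIF14, rose by 0.48 ± 0.09 (adjusted p = 0.00314), and AURKB, the kinase of the complex carried by KIF20A, by 0.38 ± 0.08 (adjusted p = 0.00936). In the triple combination against pomalidomide plus dexamethasone, the median of the spindle partners was 0.57, with 0 called (0.00672% of all genes were) and 14 of 16 at an unadjusted p under 0.05 (7.29% of all genes were). With pomalidomide 1 of the 16 fell, NUSAP1, by 0.31 ± 0.07 (adjusted p = 0.0158), where 2.65% of all genes fell, so that 1 call is near the share of all genes.

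Partners of the transport kinesins were counted in the same way. Of 22 genes listed as cargo adaptors 16 were measured and 0 were called with filanesib. Their median was 0.01, and 1 had an unadjusted p under 0.05. Of all genes 1.25% rose, 0.148% fell and 11.7% had such an unadjusted p. STARD9 in this list, and CENPE in the spindle list, which was not measured, are themselves kinesins that the symbol rule does not match. MAP7D3, a microtubule protein that recruits kinesin-1, gave 0.13 ± 0.06 (adjusted p = 0.408) and MAP7 0.09 ± 0.06 (adjusted p = 0.588). Of 24 genes of cytoplasmic dynein, the opposing motor, and its activator dynactin, 10 were measured and 1 rose: NDE1, a dynein regulator that also acts at kinetochores, by 0.29 ± 0.06 (adjusted p = 0.0176), beside the same 1.25% of all genes. BICD1, a dynein adaptor, gave 0.19 ± 0.07 (adjusted p = 0.253). Tubulin genes, 20 in the list, were not matched in the probe table and are not analysed here.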

How the data were processed

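The authors deposited log2 values for each probe set. Per the submitters' processing notes these came from RMA and Affymetrix Expression Console, whose versions are not given in the sources used here. RMA includes quantile normalisation, which hides a change shared by most genes. The probe table named 1 symbol for 16098 of 53617 probe sets. A gene with several was read from its brightest probe set on average. Differences were tested with limma 3.58.1 in R 4.3.3: 1 mean per group, 24 arrays, 16 residual degrees of freedom, eBayes, two-sided p-values adjusted within each of 19 comparisons. The number of arrays limits precision: the median SE was 0.14 between 2 groups and 0.07 for an average effect. The procedure was tested on simulated data with independent noise and, for each gene, the same spread in all groups. That setting does not cover the wider spread of the arrays of pomalidomide alone. The members and the lists were chosen with earlier results of these data known. Full statistics are given for members past the threshold, and for the 2 largest average effects of filanesib and of pomalidomide in each class; partner lists give counts and the 2 smallest p-values. KIF1A, KIF21A, KIF21B, KIF3B, KIF1B, KIF16B, PRC1, AURKB and further members below the threshold were named after their values were seen. The labels do not say what the replicate numbers mean. Deviations of same-numbered arrays had a median correlation of -0.02 (range -0.32 to 0.31), and those of differently numbered arrays 0.01 (range -0.40 to 0.35). Whether some same-numbered arrays share a batch was not tested. Genomic positions and sequences of the human genes were not used here.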

Additional observations from a re-analysis of the deposited data

Results flagged for a closer look

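For KIFC1 the arrays moved in opposite directions under pomalidomide in 2 backgrounds: pomalidomide minus control gave -0.55, with all 3 treated arrays below all 3 controls, and the triple combination minus filanesib plus dexamethasone gave 0.13, with all 3 above. For KIFC2, a neuronal transport kinesin, pomalidomide plus dexamethasone minus dexamethasone gave 0.077 and the triple combination minus filanesib plus dexamethasone gave -0.13, again with no overlap between arrays. The difference within each of these 2 pairs was not tested. None of the 4 single differences passed the limma threshold. Both genes came from a scan of all members over several comparisons, and such separations were common. Of 14884 genes, 1349 lay below control with pomalidomide, and 1021 lay above dexamethasone alone with pomalidomide plus dexamethasone. In the triple combination against filanesib plus dexamethasone 919 lay above and 1096 below. How many of all genes separated in opposite directions was not counted.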

How the results depend on the processing

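None of the called kinesins, nor the mitotic median of the average effect of filanesib or of the triple combination against pomalidomide plus dexamethasone, reversed under the alternatives run. Against control, the transport median with pomalidomide turned from -0.16 to 0.02 without replicate 3 of pomalidomide, and that with dexamethasone from -0.01 to 0.02 without replicate 3 of control; the median of the other kinesins with filanesib beside pomalidomide turned from -0.02 to 0.01 without replicate 3 of pomalidomide. The mitotic count of 10 rising with filanesib was 6 when every probe set was tested and 9 to 10 when 1 array was left out; the mitotic median of 0.45 ran from 0.41 to 0.50 over those omissions and the transport count was 0 throughout. Without replicates 1 and 3 of pomalidomide together the mitotic count was 7, KIF22, KIF2C and KIFC1 being lost (adjusted p = 0.0928, 0.106 and 0.0925). The count of 1 among other kinesins (KIF24) became 2 without dim genes or with array weights (KIF2A added), and 0 when every probe set was tested, without replicates 1 and 3 of pomalidomide, or when KIF2A and KIF24 were counted as mitotic; it ran from 0 to 3 over single omissions, with 3 without replicate 2 of pomalidomide. With the replicate number as a block the count of other kinesins was 0 (KIF24 adjusted p = 0.0617) and the mitotic count 10, and no other call changed. For pomalidomide, the count rising was 0 without dim genes, and the count falling was 2 with array weights (KIF24 added), 0 with every probe set, 0 without replicates 1 and 3 of pomalidomide, and 0 to 1 over omissions. Calls in the triple combination against pomalidomide plus dexamethasone, 0 in all arrays, were 2 with array weights, 1 in a fit restricted to the compared groups, 1 without replicates 1 and 3 of pomalidomide, and 0 to 1 over omissions; the mitotic median ran from 0.46 to 0.59. Calls summed over the 4 backgrounds of filanesib, 0 in all arrays, were 1 without dim genes, 3 with array weights, 1 in the restricted fit, 2 without replicates 1 and 3 of pomalidomide, and 0 to 3 over omissions. Calls summed over the 4 backgrounds of pomalidomide, also 0, were 2 without dim genes and 0 to 4 over omissions, those that added calls being replicates 2 and 3 of filanesib and replicate 2 of pomalidomide. Calls against control, 1 in all (KIFC3), were 2 without dim genes, 3 with array weights, 0 with every probe set (KIFC3 adjusted p = 0.063), 2 in the restricted fit, 2 without replicates 1 and 3 of pomalidomide, and 0 to 5 over omissions. Fewer genes tested (dim genes left out) or more (every probe set) change the adjustment itself; for the other settings the cause was not tested. Interactions and the average effect of dexamethasone gave 0 kinesins throughout. Leaving out the copies KIF2B and KIF4B, an alternative added after the data were seen, left the mitotic count at 10 of the remaining members.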
